A study of Homo sapiens with 6 samples.

Results

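The 50 genes described here are a mixed set of antioxidant and detoxification genes. It holds regulators and targets of the transcription factor NRF2, and genes of the glutathione, thioredoxin, peroxiredoxin, superoxide dismutase, iron storage and uptake, NADPH oxidase and aldo-keto reductase systems. Not all are NRF2 targets, and 17 of the 50 are counted as such below. All 50 were chosen by gene name, with no threshold on their values, from the 57819 genes of the deposited table, and each name was found there once. The study measured polyA RNA in IMR90 ER:Ras cells, which are fibroblasts of an established human lung line carrying a Ras oncogene that 4-hydroxytamoxifen (4OHT) switches on through a fused estrogen receptor part. All 6 libraries came from cells given 200 nM 4OHT for 3 days, which the submitters call senescent, so the drug that activates Ras was given to both groups and no library without 4OHT enters the comparison. The control group (3 libraries) received the scrambled siRNA siSCR, and the knockdown group (3 libraries) received an siRNA directed at sin-lncRNA, a long noncoding RNA. One siRNA name stands in the labels of all 3 knockdown libraries, and the column names of the deposited table add an ending to it that the labels do not explain, so which siRNA sequence or sequences were used is not settled here. Effects of losing sin-lncRNA and effects of the siRNA on other transcripts cannot be told apart. The labels give replicate numbers and do not say whether replicates were separate cultures, so the p-values below measure the spread between these libraries, which may be technical.

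NRF2, encoded by NFE2L2, is made constantly and destroyed constantly, because KEAP1 binds it and presents it to a ubiquitin ligase built on CUL3. Oxidants and electrophiles modify cysteines of KEAP1, NRF2 then accumulates, pairs with a small MAF protein such as MAFG and binds antioxidant response elements in DNA, where the repressor BACH1 competes for the same sites. Its targets make and recycle glutathione and thioredoxin, supply NADPH, break down heme, store iron and conjugate or export toxic compounds. NRF2 is governed mostly through the stability of its protein, which RNA sequencing does not measure. Oncogenic Ras raises reactive oxygen species in fibroblasts, and NADPH oxidases are among the known sources.

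The antioxidant response element has the core TGACNNNGC, where N is any base, and its letters are shown for 6 genes because their mRNAs went different ways although all carry the core close to the start of transcription. The sequences are from RefSeq promoters of build GRCh38.p14, written 5′ to 3′ on the strand of the gene, with the core in capitals. The core was searched on both strands. Of the cores in capitals, that of GCLM lies on the strand opposite to the gene and so reads in reverse. A single core is marked per gene, but ME1, TXNRD1, GSTO1 and KEAP1 hold further cores that are not marked. In ME1, TXNRD1 and KEAP1 these further cores lie on the opposite strand. The further core of KEAP1, TGACTAAGC, has the same letters as that of GCLM and begins in the last letters of the line shown.
ME1: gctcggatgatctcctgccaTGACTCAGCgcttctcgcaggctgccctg
TXNRD1: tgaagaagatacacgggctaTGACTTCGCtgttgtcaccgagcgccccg
GSTO1: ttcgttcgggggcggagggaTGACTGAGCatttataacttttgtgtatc
GCLM: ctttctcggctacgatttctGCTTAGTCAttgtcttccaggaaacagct
GSTP1: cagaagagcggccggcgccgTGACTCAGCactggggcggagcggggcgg
KEAP1: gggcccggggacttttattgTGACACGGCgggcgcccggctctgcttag
The stretches lie at chr6:83431160-83431208 (minus strand) for ME1, chr12:104215660-104215708 (plus) for TXNRD1, chr10:104254646-104254694 (plus) for GSTO1, chr1:93909436-93909484 (minus) for GCLM, chr11:67583726-67583774 (plus) for GSTP1 and chr19:10502797-10502845 (minus) for KEAP1. ME1 and GSTP1 carry the same 9 letters, TGACTCAGC, and ME1 mRNA rose (log2 fold change 0.20) while GSTP1 mRNA did not pass the test (0.11). TXNRD1 and GSTO1 fell (-0.50 and -0.38), and GCLM and KEAP1 did not pass the test (0.0059 and 0.013). A promoter of 300 bases (250 before the start and 50 after it) was listed for 41 of the 50 genes, and 8 of them (19.5%) held the core, against 4384 of 27305 genes with a listed promoter (16.1%). The other two holders were MGST1, which fell, and GSTM1, which did not pass the test. A match is a description of letters and not a binding site, and elements farther from the start lie outside this window.

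The libraries held 22117324 to 50913672 reads in genes, and each knockdown library (at most 27882280) was shallower than each control (at least 30271192), so depth and group cannot be told apart, although thinning all libraries to the smallest total was among the alternatives. The targeted RNA, listed as RP4-530I15.6, was at 3.70, 4.73 and 4.09 reads per 1000000 reads (RPM) in the controls and 0.493, 0.640 and 0.534 RPM in the knockdown libraries, which is 13.3% of the control mean (log2 fold change -2.86 ± 0.18 (SE), limma adjusted p = 7.9e-07). All 10 fibroblast markers were present. Their summed level was 15667 to 16885 RPM in the controls and 11355 to 11756 RPM after knockdown, a difference carried by COL1A1, COL1A2 and VIM. Of the 10 markers, 5 fell (COL1A1, COL1A2, VIM, PDGFRB and DCN) and 5 rose (COL3A1, PDGFRA, THY1, FAP and LUM), and the part of these changes in the results below was not tested. Of the other cell types, 6 epithelial markers summed to 3.12 to 5.09 RPM with KRT5 at 0 in every library, 3 endothelial markers to 6.93 to 8.71 RPM, and 5 leukocyte markers to 0.0896 to 0.428 RPM.

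Knockdown of sin-lncRNA was followed by moderate changes in both directions across the antioxidant genes, with more falls than rises. Of the 50 genes, 17 fell, 9 rose and 24 did not pass the test, which was limma on log2 RPM fitted to all 19048 genes with a mean of at least 10 reads and called at an adjusted p under 0.05. The 17 falls are 34.0% of the genes, where 23.5% of all genes tested were called lower, and the 9 rises are 18.0%, where 17.5% of all genes were called higher. In the alternative fit to the 15115 genes with a mean of at least 50 reads, 28.2% were called lower and 20.3% higher. All of the 50 genes but SRXN1 entered that fit, where 17 were again lower and 9 higher. Counts by role below are of few genes each and stand beside these shares. The largest fall was that of TXN2, the mitochondrial thioredoxin, to 57.3% of control, and the largest rise that of NOX4, a hydrogen peroxide-producing NADPH oxidase, to 192%. No gene of the group reached a log2 fold change of 1 in either direction, and 11 reached 0.5. The median log2 fold change was -0.057 over the 50 genes and -0.039 over all genes tested, and among called genes the median size was 0.38 for the group and 0.39 for all.

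In 20 of the 50 genes all 3 knockdown libraries lay below all 3 controls (28.3% of all genes tested did so), and in 9 they lay above (22.8% of all genes). The levels of the other 21 genes overlapped between the groups. Summed over the 50 genes, the level was 6899, 7103 and 7310 RPM in the controls and 6531, 6830 and 6861 RPM after knockdown, so the groups did not overlap, but lay close. Bulk RNA does not tell fewer cells of one kind from less RNA in each cell. The count of rises depended on processing. In an alternative fit, the trend of each library's deviations from gene means with GC content and transcript length, over all genes, was removed. The removal was done library by library, so the spread within groups could change as well as the fold change. There 17 of the 50 genes were called higher and 19 lower, in place of 9 and 17. In that fit 3716 of 18546 genes in all were called higher and 4462 lower (24.1%).

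**Figure D1:**
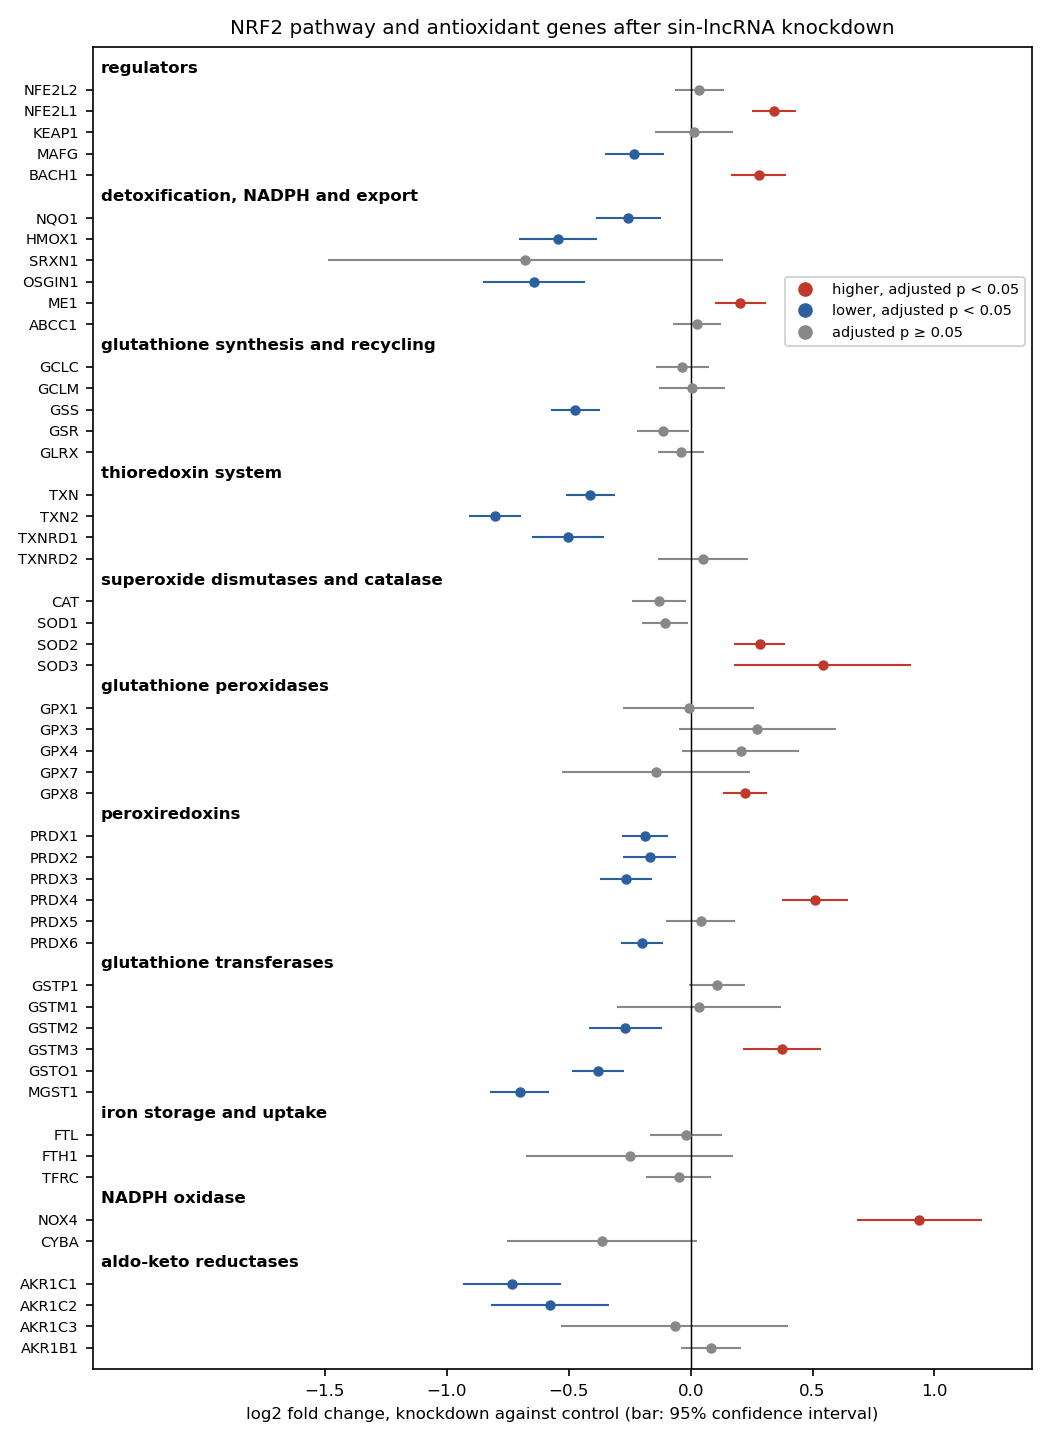
Log2 fold change of each of the 50 genes, knockdown against control, ordered by role. Points are limma estimates from 3 libraries per group and bars are 95% confidence intervals. Red marks the 9 genes called higher, blue the 17 called lower and grey the 24 that did not pass the test, with TXN2 (-0.80) and NOX4 (0.94) at the ends.

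The NRF2 and KEAP1 transcripts themselves did not pass the test, while 3 other factors that share or contest NRF2's DNA sites did: NFE2L1 and BACH1 rose and MAFG fell. NFE2L2 was at 123, 127 and 128 RPM in the controls and 135, 128 and 124 RPM after knockdown. KEAP1 was at 82.7, 72.2 and 76.3 RPM in the controls and 69.6, 83.1 and 81.0 RPM after knockdown. Both ranges overlapped between the groups. The 95% intervals of the log2 fold change were -0.065 to 0.14 for NFE2L2 (limma adjusted p = 0.57) and -0.15 to 0.17 for KEAP1 (limma adjusted p = 0.9). NFE2L2 (chr2:178092323-178257425, build hg19) overlaps AGPS on the other strand, and reads cannot be assigned to one of them where the strand was not counted. On its own strand NFE2L2 overlaps AC074286.1.

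NFE2L1, a relative of NRF2 that is anchored in the endoplasmic reticulum and drives proteasome genes, was at 302, 325 and 318 RPM in the controls and 398, 395 and 403 RPM after knockdown. The groups were separated by more than the spread within either (log2 fold change 0.34 ± 0.041 (SE), limma adjusted p = 8.0e-05). BACH1, the heme-sensing repressor of antioxidant response elements, was at 62.9, 69.1 and 69.8 RPM in the controls and 81.5, 81.7 and 81.4 RPM after knockdown. It rose to 121% of control (log2 fold change 0.28 ± 0.051 (SE), limma adjusted p = 0.0013), and its 3 knockdown libraries lay within a narrow band. MAFG, the small partner of both NRF2 and BACH1, fell (log2 fold change -0.23 ± 0.054 (SE), limma adjusted p = 0.0059).

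Among the classical NRF2 targets of detoxification and redox supply, 3 of 6 fell, 1 rose and 2 did not pass the test. NQO1, a quinone reductase often read as a gauge of NRF2 activity, was at 159.6, 173 and 181 RPM in the controls and 137, 138 and 155 RPM after knockdown. The 3 knockdown libraries were all below the controls, and the fall was small (log2 fold change -0.26 ± 0.060 (SE), limma adjusted p = 0.0061). HMOX1, which opens the heme ring and releases iron, biliverdin and carbon monoxide, was at 24.0, 26.5 and 27.1 RPM in the controls and 18.2, 16.4 and 18.6 RPM after knockdown. It fell to 68.5% of control (log2 fold change -0.54 ± 0.072 (SE), limma adjusted p = 0.00016), with no overlap between the groups. OSGIN1, an oxidative stress-induced growth inhibitor, was at 9.28, 9.29 and 10.2 RPM in the controls and 5.51, 6.57 and 6.31 RPM after knockdown. That is a fall to 64.0% of control (log2 fold change -0.64 ± 0.095 (SE), limma adjusted p = 0.00033).

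ME1, the cytosolic malic enzyme that yields NADPH, went the other way: its controls spanned 59.2 to 62.6 RPM and its knockdown libraries 68.1 to 71.3 RPM (log2 fold change 0.20 ± 0.047 (SE), limma adjusted p = 0.0056). ABCC1, an exporter of glutathione conjugates, had a log2 fold change of 0.026 (limma adjusted p = 0.68). SRXN1, which repairs overoxidized peroxiredoxins, was at 0.646, 0.266 and 0.497 RPM in the controls and 0.224, 0.256 and 0.321 RPM after knockdown. These are 5 to 25 reads per library, the control libraries differed among themselves more than the groups did, and the difference did not pass the test (log2 fold change -0.68 ± 0.37 (SE), limma adjusted p = 0.17). Without control replicate 2 it was -1.02 (limma adjusted p = 0.045). In addition, 84.7% of the 50-base stretches of its transcripts also occur in another annotated gene, AL121758.1, so reads of SRXN1 may have been lost or credited elsewhere, and its value is uncertain.

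Of 5 genes for making and recycling glutathione, the main thiol of the cell, 1 fell and 4 did not pass the test. GCLC and GCLM encode the catalytic and modifier subunits of glutamate-cysteine ligase, the rate-limiting enzyme of glutathione synthesis and one of the best known NRF2 targets. GCLC was at 41.2, 41.6 and 42.6 RPM in the controls and 41.6, 39.5 and 41.3 RPM after knockdown. GCLM was at 21.8, 23.8 and 24.1 RPM in the controls and 23.3, 23.5 and 23.2 RPM after knockdown. Both genes overlapped between the groups, and the 95% intervals of their log2 fold changes were -0.14 to 0.076 and -0.13 to 0.14. GSS, the synthetase of the second step, was at 69.0, 73.2 and 71.1 RPM in the controls and 50.7, 51.5 and 51.4 RPM after knockdown. It fell to 72.0% of control (log2 fold change -0.47 ± 0.046 (SE), limma adjusted p = 1.9e-05), and the 3 knockdown libraries were almost equal.

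GSR, the reductase that regenerates glutathione with NADPH, lay lower in all 3 knockdown libraries at 48.7 to 50.8 RPM against 51.7 to 55.1 RPM, and did not pass the test (log2 fold change -0.11 ± 0.049 (SE), limma adjusted p = 0.088). GLRX, a glutaredoxin that removes glutathione from proteins, had a log2 fold change of -0.039 (limma adjusted p = 0.5). Within glutathione synthesis, then, the second enzyme fell and the subunits of the first did not pass the test.

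The thioredoxin system, a second NADPH-fed thiol pathway, held the largest single fall: 3 of its 4 genes were called lower and none higher. TXN2, the mitochondrial thioredoxin (chr22:36863083-36878077, hg19), was at 76.6, 80.3 and 80.7 RPM in the controls and 46.2, 43.8 and 46.3 RPM after knockdown. The highest knockdown library (46.3 RPM) was far below the lowest control (76.6 RPM), with log2 fold change -0.80 ± 0.049 (SE), limma adjusted p = 7.4e-07. TXNRD1, the cytosolic selenoprotein reductase that recharges thioredoxin, was at 365, 443 and 429.5 RPM in the controls and 302, 283 and 285 RPM after knockdown. It fell to 70.3% of control (log2 fold change -0.50 ± 0.066 (SE), limma adjusted p = 0.00016), although the controls spanned a wider range than the knockdown libraries.

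TXN, the cytosolic thioredoxin and substrate of TXNRD1, was at 123, 132 and 132 RPM in the controls and 95.3, 96.1 and 98.8 RPM after knockdown. It fell to 75.1% of control (log2 fold change -0.41 ± 0.045 (SE), limma adjusted p = 4.5e-05). TXNRD2, the mitochondrial reductase that serves TXN2, was at 18.2 to 20.4 RPM in the controls and 17.6 to 21.7 RPM after knockdown and did not pass the test (log2 fold change 0.051 ± 0.084 (SE), limma adjusted p = 0.66). So the mitochondrial thioredoxin fell while the test for its reductase was not passed, and the difference between these genes was not tested.

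The enzymes that dispose of superoxide and hydrogen peroxide were divided. SOD2, the manganese superoxide dismutase of mitochondria, was at 122, 112 and 113 RPM in the controls and 143, 144 and 135 RPM after knockdown. It rose to 122% of control with no overlap (log2 fold change 0.28 ± 0.048 (SE), limma adjusted p = 0.0008). Part of SOD2 overlaps WTAP and ACAT2 on the other strand, as in the table's coordinates (chr6:160090089-160183561, hg19). SOD1, the cytosolic copper-zinc enzyme, and CAT, the peroxisomal catalase, lay lower in all 3 knockdown libraries without passing the test, at log2 fold changes of -0.11 (limma adjusted p = 0.069) and -0.13 (limma adjusted p = 0.062). Without control replicate 1, CAT passed it at -0.16 (limma adjusted p = 0.029).

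SOD3, the dismutase secreted into the extracellular matrix, was at 3.67, 2.63 and 3.26 RPM in the controls and 3.90, 5.68 and 4.38 RPM after knockdown. The knockdown libraries all lay above the controls, by a small margin over control replicate 1, and the rise passed the test (log2 fold change 0.54 ± 0.16 (SE), limma adjusted p = 0.022). This is a gene of low counts (79 to 164 reads), and its call was lost without control replicate 2 (0.41, limma adjusted p = 0.062), without control replicate 3 (0.56, adjusted p = 0.054), without knockdown replicate 2 (0.39, adjusted p = 0.088) and after thinning (0.44, adjusted p = 0.091).

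Glutathione peroxidases use glutathione to reduce peroxides, and 1 of the 5 measured rose while 4 did not pass the test. GPX8, an endoplasmic reticulum membrane protein of the family, stood at 158 to 160.4 RPM in the controls and 179.5 to 191 RPM after knockdown (log2 fold change 0.22 ± 0.041 (SE), limma adjusted p = 0.0014). GPX4, which reduces lipid hydroperoxides in membranes and restrains ferroptosis, was at 143, 109 and 130.5 RPM in the controls and 124, 163 and 155 RPM after knockdown. Its libraries overlapped, with control replicate 2 and knockdown replicate 1 lowest in their groups, and the difference did not pass the test (log2 fold change 0.21 ± 0.11 (SE), limma adjusted p = 0.16). Without knockdown replicate 1 it was 0.33 (limma adjusted p = 0.022). GPX1, the abundant cytosolic enzyme, had a log2 fold change of -0.0082 (limma adjusted p = 0.96), secreted GPX3 0.27 (limma adjusted p = 0.16) and GPX7, another enzyme of the endoplasmic reticulum, -0.14 (limma adjusted p = 0.55).

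Peroxiredoxins, thiol peroxidases of which most are recharged by thioredoxin, had the highest share of calls of the 11 roles: 4 of 6 fell, 1 rose and 1 did not pass the test. PRDX4, the member resident in the endoplasmic reticulum, was at 66.9, 60.2 and 66.1 RPM in the controls and 84.8, 97.3 and 93.1 RPM after knockdown. It was the sole member to rise, to 142% of control (log2 fold change 0.51 ± 0.062 (SE), limma adjusted p = 9.0e-05), and no transcript stretch of it is shared with another gene. The falls were small in size. Mitochondrial PRDX3 had the largest (log2 fold change -0.27 ± 0.048 (SE), limma adjusted p = 0.0012), followed by PRDX6, which also acts on phospholipids (log2 fold change -0.20 ± 0.038 (SE), limma adjusted p = 0.0019). Cytosolic PRDX1 was called lower as well (log2 fold change -0.19 ± 0.043 (SE), limma adjusted p = 0.0049), although 21.0% of its 50-base stretches are shared, nearly all with MMACHC on the other strand.

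Cytosolic PRDX2 passed the test at a log2 fold change of -0.17 (limma adjusted p = 0.019) and lost its call without control replicate 1 (-0.15, adjusted p = 0.050), control replicate 3 (-0.17, adjusted p = 0.063), knockdown replicate 1 (-0.13, adjusted p = 0.063) or knockdown replicate 3 (-0.16, adjusted p = 0.063), all by limma. PRDX5, found in several organelles, was at 0.041 (limma adjusted p = 0.65). Of the peroxiredoxins and glutathione peroxidases assigned to the endoplasmic reticulum, PRDX4 and GPX8 were called higher. GPX7 did not pass the test at 59 to 163 reads per library. This does not extend to all genes of that compartment: the transferase MGST1, described below, fell (log2 fold change -0.70, limma adjusted p = 3.9e-06).

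Glutathione transferases attach glutathione to electrophiles, and of 6 measured 3 fell, 1 rose and 2 did not pass the test. MGST1, the microsomal transferase of the endoplasmic reticulum and mitochondrial membranes (chr12:16500076-16762193, hg19), was at 134, 152 and 145 RPM in the controls and 92.2, 85.8 and 86.1 RPM after knockdown. It fell to 61.4% of control (log2 fold change -0.70 ± 0.055 (SE), limma adjusted p = 3.9e-06), with a gap between the groups wider than either group. GSTO1, an omega-class enzyme that also reduces mixed disulfides, fell from 217 ± 11.3 RPM to 167 ± 5.42 RPM (mean ± SD, n = 3 each; log2 fold change -0.38 ± 0.048 (SE), limma adjusted p = 0.00012).

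The mu-class genes, which sit side by side on chromosome 1, went different ways. GSTM3 was at 21.4, 18.0 and 20.5 RPM in the controls and 25.4, 26.6 and 25.5 RPM after knockdown. It rose to 129% of control (log2 fold change 0.37 ± 0.072 (SE), limma adjusted p = 0.0018). GSTM2 fell (log2 fold change -0.27 ± 0.068 (SE), limma adjusted p = 0.0091), and GSTM1, at 1.73 to 1.90 RPM in the controls and 1.62 to 1.99 RPM after knockdown, had a log2 fold change of 0.034 (limma adjusted p = 0.88). GSTM1 shares 51.5% of its 50-base stretches with other genes, most with GSTM2, and overlaps it in the table, so the values of these genes are uncertain. For GSTM3 4.80% are shared, but it overlaps GSTM5 on the other strand, and reads cannot be assigned there where the strand was not counted. GSTP1, the pi-class enzyme whose promoter core is printed above, had a log2 fold change of 0.11 (limma adjusted p = 0.13), and 0.15 (limma adjusted p = 0.049) without knockdown replicate 1.

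No gene of iron storage or uptake passed the test. FTL, the ferritin light chain, had the highest level per transcript length of all 50 genes (1899.5 RPM per kb of its longest transcript in the controls). In the 6 libraries FTL was at 1499.9, 1755 and 1748 RPM in the controls and 1533, 1648 and 1745 RPM after knockdown. The ranges overlapped almost wholly, and the 95% interval of the log2 fold change was -0.17 to 0.13 (limma adjusted p = 0.83). FTH1, the heavy chain with the ferroxidase site, was at 232, 120.1 and 184 RPM in the controls and 121, 169.6 and 148 RPM after knockdown. Control replicate 2 lay at the level of the lowest knockdown library and the spread within each group was large (log2 fold change -0.25 ± 0.19 (SE), limma adjusted p = 0.33). Without that control the difference was -0.51 (limma adjusted p = 0.0033). FTH1 also shares 57.4% of its 50-base stretches with other genes, among them BEST1 on the other strand, so its value is uncertain. TFRC, the transferrin receptor, had a log2 fold change of -0.049 (limma adjusted p = 0.55).

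NADPH oxidases make reactive oxygen species, and 1 of the 2 oxidase genes rose. NOX4, which releases mostly hydrogen peroxide (chr11:89057524-89322779, hg19), was at 3.32, 3.73 and 3.99 RPM in the controls and 7.04, 7.81 and 6.34 RPM after knockdown. Every knockdown library was above every control and the mean came to 192% of control (log2 fold change 0.94 ± 0.12 (SE), limma adjusted p = 0.0001). The values rest on 112 to 201 reads per library. CYBA, the p22phox subunit that stabilizes NOX4, was at 52.6, 30.1 and 43.0 RPM in the controls and 26.5, 38.2 and 31.6 RPM after knockdown. These ranges overlapped and the difference did not pass the test (log2 fold change -0.36 ± 0.18 (SE), limma adjusted p = 0.13), while without control replicate 2 it was -0.58 (limma adjusted p = 0.0022).

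Aldo-keto reductases reduce carbonyls of lipid peroxidation and of steroids, and AKR1C genes are among the strongest NRF2 targets in human cells. AKR1C1 was at 12.4, 10.8 and 10.6 RPM in the controls and 6.99, 6.32 and 6.91 RPM after knockdown. It fell to 60.0% of control (log2 fold change -0.73 ± 0.091 (SE), limma adjusted p = 0.0001). AKR1C2 was at 6.29, 5.86 and 5.48 RPM in the controls and 3.54, 4.18 and 4.06 RPM after knockdown. It fell to 66.8% of control (log2 fold change -0.58 ± 0.11 (SE), limma adjusted p = 0.0017), and neither gene overlapped between the groups. These neighbours on chromosome 10 are near copies: 28.3% of the 50-base stretches of AKR1C1 occur in AKR1C2 and 38.1% of those of AKR1C2 in AKR1C1, so how reads were divided between them is uncertain. AKR1C3, with 4.53% shared stretches and 29 to 77 reads, had a log2 fold change of -0.066 (limma adjusted p = 0.83), and AKR1B1, the aldose reductase of the polyol pathway, 0.085 (limma adjusted p = 0.25).

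**Figure D2:**
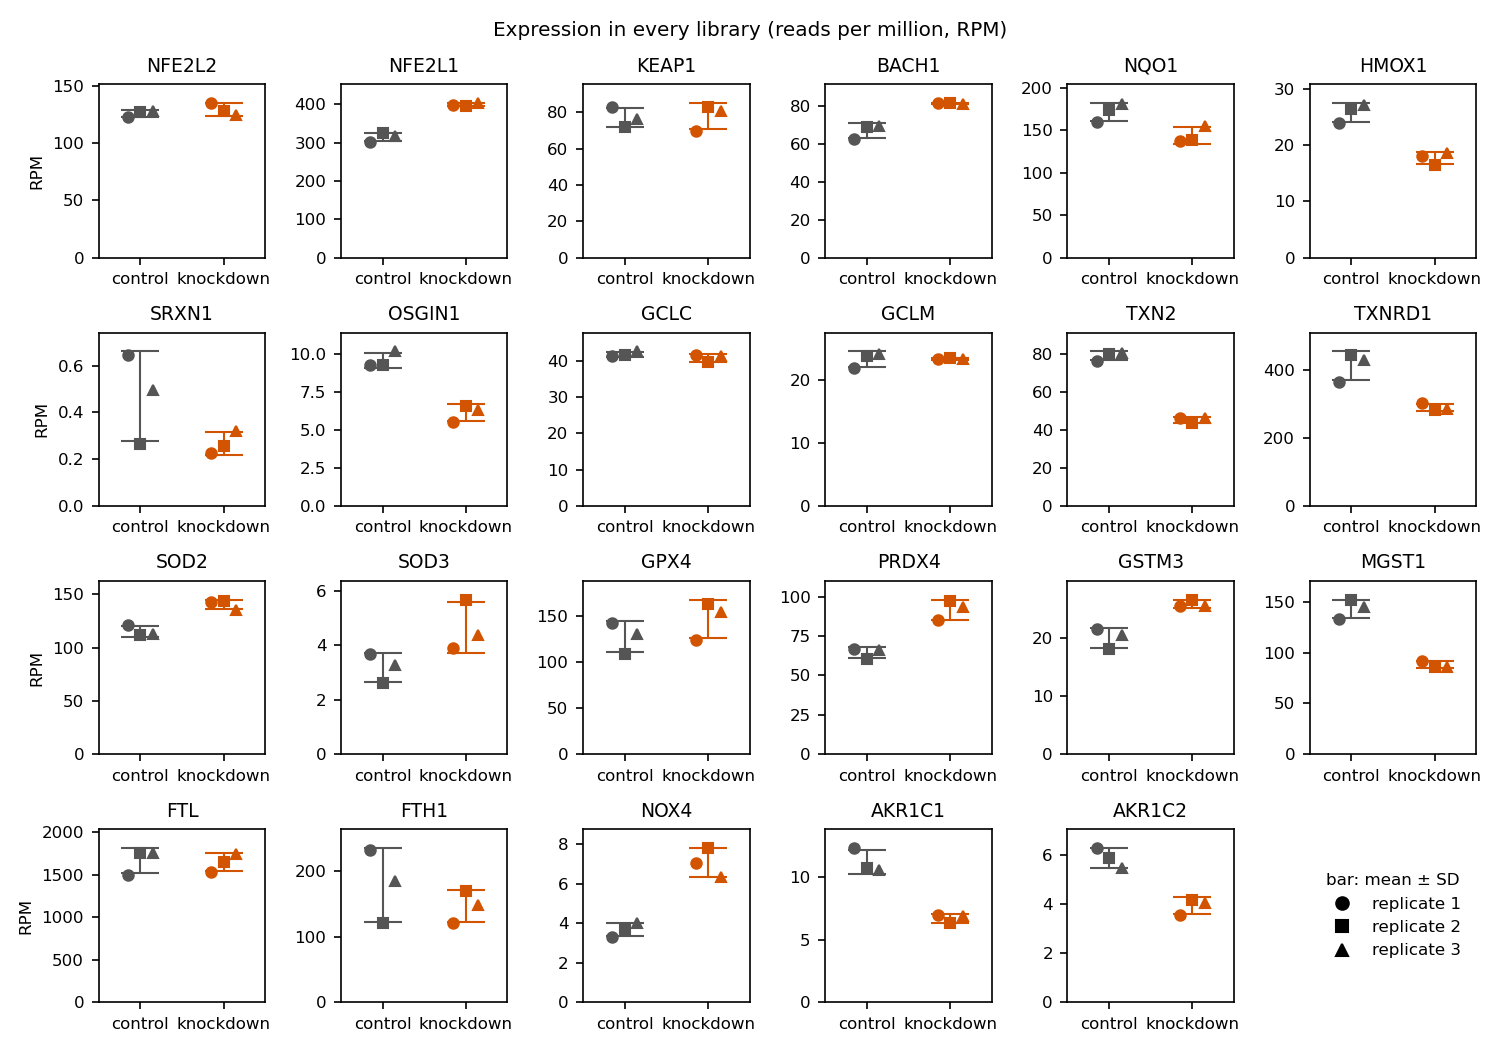
Level in every library, in RPM with each axis starting at 0, for the genes described in full. Symbols are the 3 replicates of each group and bars show the mean ± SD. TXN2, MGST1 and HMOX1 lie lower and NOX4, PRDX4 and NFE2L1 higher in all 3 knockdown libraries, while NFE2L2, GCLC, GCLM and FTL overlap.

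Of the 50 genes, 17 belong to a set widely used as NRF2 targets in human cells: NQO1, HMOX1, GCLC, GCLM, TXNRD1, SRXN1, OSGIN1, ME1, ABCC1, FTL, FTH1, GSR, TXN, PRDX1, AKR1C1, AKR1C2 and AKR1C3. In this set 8 fell (47.1%), 1 rose (5.88%) and 8 did not pass the test. Of all genes tested 23.5% were called lower and 17.5% higher. In the fit to genes with a mean of at least 50 reads, 28.2% were called lower and 20.3% higher. The median log2 fold change of the set was -0.25, and 9 of its genes had all knockdown libraries below all controls while 1, ME1, had them above. Falls ranged from AKR1C1 (-0.73) to PRDX1 (-0.19), and the genes without a call included GCLC, GCLM and FTL, whose estimates were within 0.04 of 0. These genes were picked with earlier results of the same libraries known, so the counts are a description.

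The genes differed in how tightly their replicates agreed. GPX1 was at 244, 172 and 232 RPM in the controls and 184, 238 and 218 RPM after knockdown. In GPX1 control replicate 1 was the highest control and control replicate 2 the lowest, and knockdown replicate 1 was the lowest and knockdown replicate 2 the highest of their group. KEAP1, TXNRD2, SOD3, GPX4, PRDX2, PRDX4, PRDX5, GSTP1, GSTM3, FTH1 and CYBA had the same ordering, which makes 12 of the 50 genes (24.0%), and 9.25% of all genes tested had it. The median GC content of the longest transcript was 50.3% over the 50 genes and 47.5% over all genes tested, and the median length 2346.5 against 2777 nucleotides. With the GC and length trend removed, 8 genes with a GC content of 53.5 to 64.2% gained a call as higher: KEAP1 (0.14), TXNRD2 (0.21), GPX1 (0.23), GPX3 (0.40), GPX4 (0.43), PRDX5 (0.26), GSTP1 (0.31) and AKR1B1 (0.16). TFRC, CAT and GSR gained a call as lower (each -0.12), CAT with its estimate little changed (from -0.1285 to -0.1247). PRDX2 lost its call (-0.045, limma adjusted p = 0.39). All other calls stood, including the falls of TXN2, MGST1, AKR1C1 and HMOX1 and the rises of NOX4 and PRDX4.

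**Figure D3:**
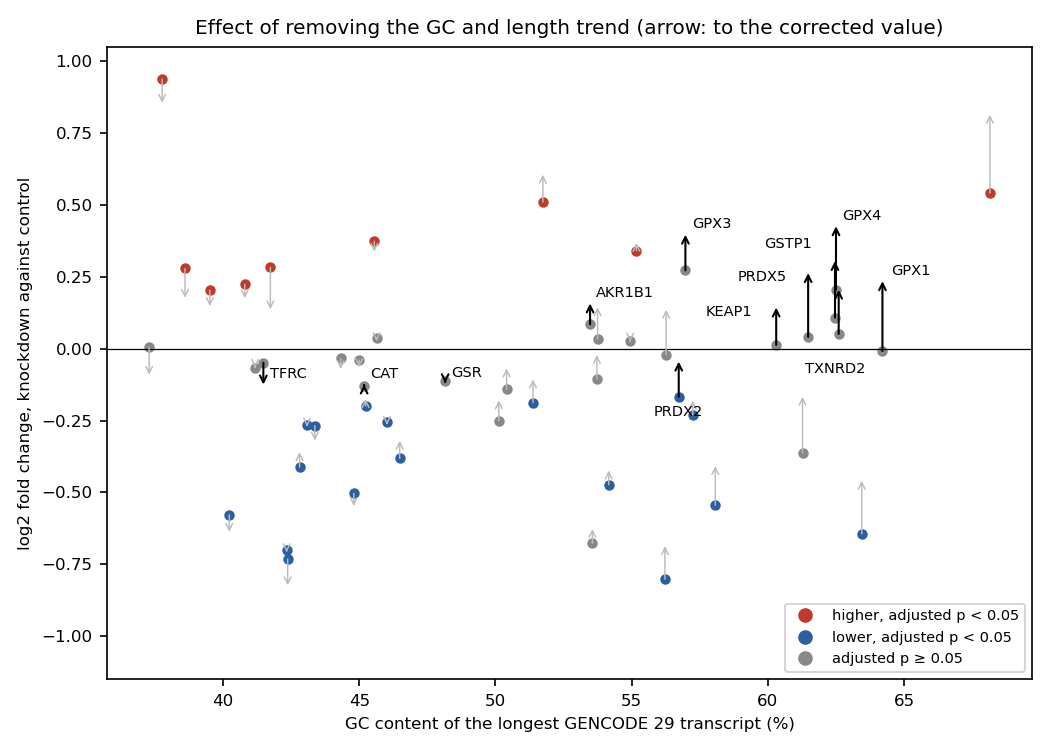
Log2 fold change of the 50 genes against the GC content of their longest GENCODE 29 transcript, with an arrow from each estimate to its value after the trend with GC content and length was removed. Dots are coloured by the call before removal, and black arrows with names mark the 12 genes whose call changed: GPX4 moved from 0.21 to 0.43 and PRDX2 from -0.17 to -0.045.

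Most of the 50 genes shared little sequence with others. Of the 50-base stretches of their transcripts in GENCODE 29, the length of the reads, none were shared with another gene for 11 genes, including TXNRD1, PRDX4, SOD3, GPX4, CAT and ME1, and under 5% for 34. The share reached 20% in 6 genes, SRXN1, FTH1, GSTM1, AKR1C2, AKR1C1 and PRDX1. It was 15.6% for NFE2L2, 15.3% for NQO1 and 12.1% for OSGIN1. Some genes also overlap others on their own strand in the table's coordinates. Among these are TXNRD1 (EID3 and RPL18AP3), MAFG (SIRT7), PRDX2 (HOOK2) and MGST1 (RP11-424M22.1). Compared per kilobase of longest transcript in the controls, FTL was followed by PRDX1 (342 RPM per kb), PRDX6 (236), GSTO1 (207) and GPX1 (187), and SRXN1 was the lowest (0.174).

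A list of 86 other genes of the same pathways gave 76 tested genes, of which 34 fell (44.7%), 12 rose (15.8%) and 30 did not pass the test. Of all genes tested 23.5% were called lower and 17.5% higher. In the fit to genes with a mean of at least 50 reads, 28.2% were called lower and 20.3% higher. The median log2 fold change of the list was -0.16, against -0.039 over all genes tested. This list was picked with earlier results of the same libraries known, so its counts are a description. The largest falls were in carbonyl reductases. CBR1, which reduces quinones and lipid carbonyls, was at 72.7, 70.4 and 77.4 RPM in the controls and 28.3, 27.0 and 27.6 RPM after knockdown. It fell to 37.6% of control (log2 fold change -1.41 ± 0.053 (SE), limma adjusted p = 5.4e-08), a larger change than in any of the 50 genes. CBR3, its neighbour and relative, was at 5.29, 2.53 and 3.50 RPM in the controls and 1.25, 1.62 and 1.496 RPM after knockdown (log2 fold change -1.30 ± 0.23 (SE), limma adjusted p = 0.0012). CHAC2, which degrades glutathione, was at 3.64, 4.56 and 4.59 RPM in the controls and 1.79, 2.39 and 1.71 RPM after knockdown (log2 fold change -1.12 ± 0.16 (SE), limma adjusted p = 0.00029). ABCC3, an exporter of conjugates, was at 3.47, 3.96 and 3.16 RPM in the controls and 1.61, 1.41 and 1.89 RPM after knockdown (log2 fold change -1.10 ± 0.16 (SE), limma adjusted p = 0.00025). In each of these 4 genes all knockdown libraries were below all controls.

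Rises in the list were led by a second BACH repressor. BACH2 was at 4.43, 4.70 and 4.47 RPM in the controls and 10.4, 8.45 and 10.0 RPM after knockdown. It came to 212% of control (log2 fold change 1.08 ± 0.10 (SE), limma adjusted p = 1.5e-05), so both BACH genes were called higher. MGST2, a microsomal transferase related to MGST1, was at 3.55, 3.03 and 3.00 RPM in the controls and 4.84, 5.04 and 6.27 RPM after knockdown. It rose (log2 fold change 0.75 ± 0.13 (SE), limma adjusted p = 0.001) where MGST1 fell. SESN1, a sestrin that responds to p53, was at 21.2, 17.5 and 19.5 RPM in the controls and 30.5, 28.7 and 29.7 RPM after knockdown (log2 fold change 0.62 ± 0.074 (SE), limma adjusted p = 8.5e-05). GSTZ1, a zeta-class transferase of tyrosine breakdown, was at 9.604, 7.96 and 8.68 RPM in the controls and 13.2, 13.1 and 13.3 RPM after knockdown (log2 fold change 0.60 ± 0.084 (SE), limma adjusted p = 0.00025).

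By subgroup of this list, other NRF2 targets held the highest share of falls, with 13 of 20 lower (65.0%) and 1 higher (5.0%). Of all genes tested 23.5% were called lower and 17.5% higher. The following genes were named after their values were seen. Beside HMOX1, the next enzymes of heme breakdown also fell, BLVRA at -0.80 (limma adjusted p = 1.4e-05) and BLVRB at -0.42 (limma adjusted p = 0.013), as did FECH, the enzyme that inserts iron to make heme, at -0.60 (limma adjusted p = 2.5e-05). BLVRB lost its call without control replicate 3 (-0.35, limma adjusted p = 0.065) and without knockdown replicate 1 (-0.34, limma adjusted p = 0.053). It also lost its call with eBayes without the intensity trend (-0.42, limma adjusted p = 0.068). Of the pentose phosphate pathway and the enzymes that make NADPH, several were called lower: PGD (-0.18), TALDO1 (-0.27), TKT (-0.51), IDH1 (-0.30), ME2 (-0.42), ME3 (-0.55) and NNT (-0.33). IDH2 at -0.028 (limma adjusted p = 0.82) and the NAD kinase NADK at -0.14 (limma adjusted p = 0.057) did not pass the test, and ME1 rose. NADK was called lower with robust fitting and also without control replicate 2 (-0.17, limma adjusted p = 0.040) and without knockdown replicate 3 (-0.18, limma adjusted p = 0.044). SLC7A11, which imports cystine for glutathione, was at 57.7, 72.3 and 66.1 RPM in the controls and 69.7, 61.6 and 63.0 RPM after knockdown and did not pass the test (95% interval -0.18 to 0.17, limma adjusted p = 0.94), whereas with the GC and length trend removed it was called lower (-0.17, limma adjusted p = 0.033).

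Of 12 other regulators 4 rose (33.3%) and 3 fell (25.0%), where 17.5% of all genes tested were called higher and 23.5% lower. The subgroups below are small and stand beside the same shares of all genes. SQSTM1, which draws KEAP1 into autophagy and is itself an NRF2 target, fell (log2 fold change -0.44 ± 0.056 (SE), limma adjusted p = 0.00013), and GSK3B, a kinase that marks NRF2 for degradation, rose (log2 fold change 0.34 ± 0.048 (SE), limma adjusted p = 0.00024). NFE2L3, another factor of the NRF2 family, rose as well (log2 fold change 0.45 ± 0.056 (SE), limma adjusted p = 0.00011), so both relatives of NRF2 were called higher while NFE2L2 itself did not pass the test. Of 17 other glutathione genes 9 fell (52.9%), among them CHAC1 (-0.63) and ETHE1 (-0.78), a mitochondrial sulfur dioxygenase, and 3 rose (17.6%). Of 7 thioredoxin and methionine repair genes 3 fell (42.9%), among them the selenoprotein MSRB1 (-0.33), and 1 (14.3%), MSRB3 (0.42), rose. Of 8 iron genes 2 rose (25.0%), IREB2 (0.46) among them, and 2 fell (25.0%), while of 8 oxidase and NADPH genes 4 fell (50.0%) and none rose. Of 4 genes of selenoprotein synthesis 1 rose, 3 did not pass the test, and none fell.

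**Figure D4:**
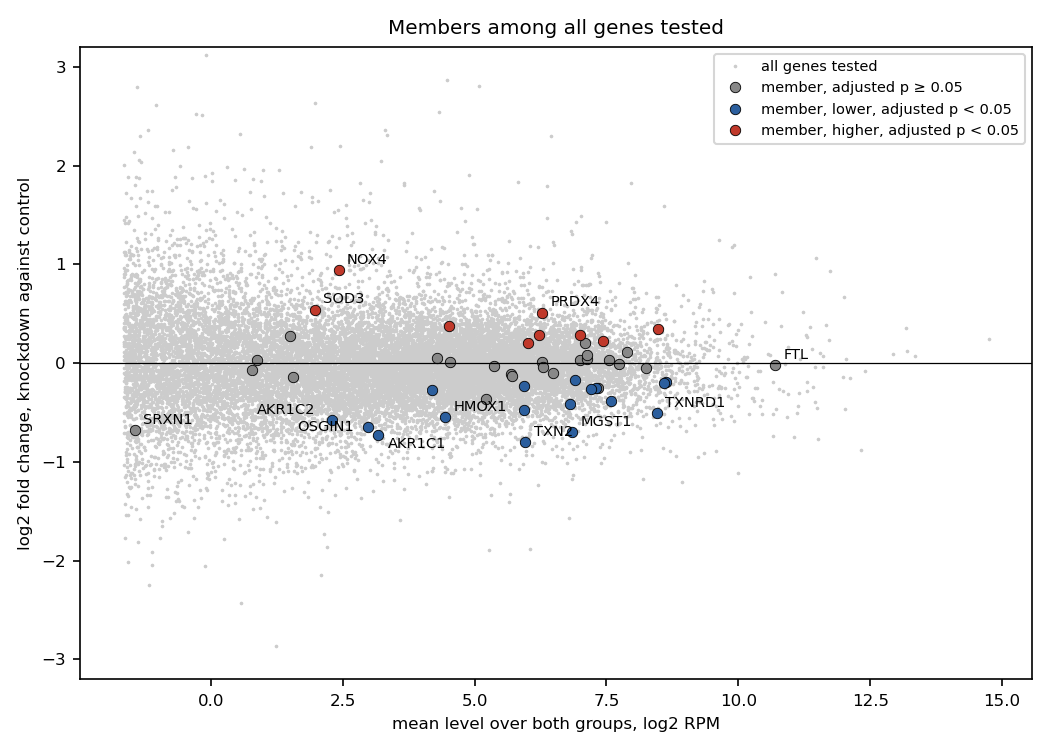
Log2 fold change against mean level (log2 RPM over both groups) for the 19048 genes tested in light grey, with the 50 antioxidant genes overlaid in red (9 called higher), blue (17 lower) and dark grey (24 not called). The named points are those with a change above 0.5 in size and FTL. The antioxidant genes lie within the cloud of all genes, between -0.80 and 0.94, while 591 of the 19048 genes change by 1 or more.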

How the data were processed

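PolyA RNA from 3 control and 3 knockdown samples of IMR90 ER:Ras cells was read as single 50-base reads, per the labels' protocols. The submitters' processing notes name Bowtie2, featureCounts and hg19. Their versions, the annotation release and whether strand was counted are not given in the sources used here. The authors deposited 1 table of 57819 genes whose values are log2 counts scaled to 1000000 reads (log2 CPM), worked out from the values: adding 0.5 reads to each count and scaling by an effective library size returns whole reads for 100% of values (within 3.9e-08 reads). RPM here is those reads over the effective size, without the added 0.5.

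The deposited log2 values were tested with limma 3.58.1 in R 4.3.3 (lmFit, eBayes with an intensity trend, two-sided, group as sole term) over the 19048 genes with a mean of at least 10 reads, with Benjamini-Hochberg adjustment over all of them. An exact permutation test of 3 against 3 could not go below 0.1. The fitting code was tested on simulated data. Between replicates of a group the reads differed by more than counting noise (chi-square per degree of freedom from 2.69 to 10.1), which may be technical, and no library was merged with another.

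Values in every library are printed for 14 genes set by name and for the 6 largest rises and 6 largest falls that passed the test with no overlap between groups at a mean of 50 reads or more, and for the 4 largest of each in the pathway list. TXN, GSS, CYBA, GPX1 and SLC7A11 were added after their values were seen. The genes and lists were chosen with earlier results of these data known. Of the 86 pathway genes, 10 were under the minimum of 10 reads. Promoters are from RefSeq, and shared stretches and GC content from GENCODE 29. Alternatives were 18 other settings. PECAM1, of the endothelial markers, was not matched.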

Additional observations from a re-analysis of the deposited data

How the results depend on the processing

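Of the 26 genes called among the 50, 23 kept direction and call in all 18 alternatives, and none of the 26 changed sign. NQO1, SOD3 and PRDX2 lost their calls in some. With a prior without the intensity trend NQO1 stood at an adjusted p of 0.050 (limma). SOD3 and PRDX2 also lost their calls in that fit (adjusted p = 0.066 and 0.079, limma). The alternatives were other added reads (1 or 5), no filter, a mean of at least 50 reads, library totals, quantile normalization, voom, eBayes without the trend or with robust fitting, the replicate block, thinning, removal of the GC and length trend, and leaving out each library. Of 30 transcripts named outside the 50 (genes of the pathway list and the targeted RNA), 26 kept their call, or lack of one, and direction throughout, and the exceptions were BLVRB, SLC7A11, IDH2 and NADK.

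Removing the GC and length trend called 17 of the 50 genes higher, in place of 9, and 19 lower, in place of 17, where 3716 of 18546 genes in all were called higher and 4462 lower. That fit also changed the sign of GCLM (-0.091), GPX1 (0.23), FTL (0.14) and IDH2 (0.052). Library totals changed that of GPX1 (0.011) and SLC7A11 (0.010), quantile normalization that of GCLC (0.0038), GPX1 (0.023), FTL (0.079), SLC7A11 (0.023) and IDH2 (0.015), and thinning that of KEAP1 (-0.016). The cause was not tested. None of these genes passed the test as reported. Quantile normalization called GSTP1 higher (0.16, limma adjusted p = 0.024).

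Leaving out 1 library gave 8 to 11 genes higher, 16 to 20 lower and a median log2 fold change from -0.109 to -0.0556, the lowest without control replicate 2. Over all genes these fits called 13.6 to 16.3% higher and 16.8 to 22.6% lower, with medians from -0.045 to -0.033. In the pathway list it gave 10 to 13 higher and 29 to 35 lower. It changed the sign of genes without a call: GCLM (-0.039 to 0.033), GPX1 (-0.17 to 0.094), GSTM1 (-0.017 to 0.13), AKR1C3 (-0.21 to 0.14), KEAP1 (-0.035 to 0.092), PRDX5 (-0.019 to 0.099), FTL (-0.096 to 0.028), TFRC (-0.12 to 0.0061), SLC7A11 (-0.097 to 0.067), TXNRD2 (-0.015 to 0.14), ABCC1 (-0.0019 to 0.055), IDH2 (-0.11 to 0.045) and GPX7 (-0.31 to 0.059).

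Whether libraries of the same replicate number were paired is not settled by the labels. Deviations of same-numbered libraries correlated at -0.149, -0.183 and 0.065, and those of differently numbered libraries at -0.076 to 0.204. With so few libraries per group these values cannot decide the question. With the replicate block 8 of the 50 genes were called higher and 16 lower, where 14.4% of all genes were called higher and 19.5% lower. SOD3 and PRDX2 lost their calls in that fit (adjusted p = 0.065 and 0.062, limma). Depth limits SRXN1, AKR1C3, GSTM1 and GPX7, whose estimates rest on 5 to 163 reads per library.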
